A study of Mus musculus with 6 samples.

Results

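The genes described here are the 9 members of the classical MHC class I presentation pathway H2-K1, H2-D1, B2m, Tap1, Tap2, Tapbp, Nlrc5, Psmb8 and Psmb9, chosen by gene symbol as 9 of the 31055 features of a single-cell RNA sequencing matrix of neoplastic cells from mouse lung tumors. Their transcripts were followed across 3 groups of cells set apart by other genes, and between cells that carried a GFP transcript and cells that carried an Stk11 transcript. The mice carried the Lkb1XTR/XTR and Rosa26LSL-tdTomato alleles and were 6 to 12 weeks old when a lentivirus encoding Cre was delivered into the trachea, and tumors grew for 20 weeks before 2 weeks of treatment with 4 mg doses of tamoxifen or with corn oil vehicle. Cre turned on the red tdTomato marker, and it inverted the XTR cassette so that the Lkb1 gene (symbol Stk11) was cut short by a gene trap ending in GFP. Of the 6 mice, 3 were labelled Restored, all with FLPo-ERT2 and tamoxifen, which deletes the trap, and 3 were labelled NonRestored, of which 1 had tamoxifen without FLPo-ERT2, 1 had vehicle without FLPo-ERT2 and 1 had vehicle with FLPo-ERT2. All mice in both groups therefore shared the prior loss of Lkb1, the background was mixed, and any cell that Cre reached in the lung could have been recombined. Live tdTomato-positive cells negative for CD45, CD31, F4/80 and Ter119 were sorted, a sort meant to leave out hematopoietic and endothelial cells and normal neighbors of the tumor.

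MHC class I molecules display peptides from inside the cell to CD8 T cells. Proteins are cut by the proteasome, in which the interferon-inducible subunits Psmb8 and Psmb9 can replace the constitutive Psmb5 and Psmb6, the peptides are pumped into the endoplasmic reticulum by the Tap1-Tap2 transporter, and tapasin (Tapbp) holds the transporter to an empty heavy chain (H2-K1 or H2-D1) paired with beta-2 microglobulin (B2m). Nlrc5 is the transactivator that drives these genes together, and in lung the same alveolar type II (ATII) cells that make surfactant also carry MHC class II.

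The promoter windows below, from RefSeq on GRCm38.p6, show what the heavy chain genes have in common with each other and with the other members. RefSeq gave a window, from 250 bases before to 50 bases after the start, for 7 of the 9 members, and none for Tap2 and Nlrc5. H2-K1 had 2 windows from different starts. The one not printed, at chr17:34000284-34000583, held the same NF-kB and Y box matches. Capitals mark a match, on either strand, to the NF-kB letters GGGATTCCC, the Y box letters CTGATTGG (CCAATCAG on the other strand) or the interferon-stimulated response element (ISRE) letters GAAANNGAAA. The windows lie at chr17:34000298-34000597, minus strand, for H2-K1, at chr17:35262844-35263143, plus strand, for H2-D1, at chr2:122147437-122147736, plus strand, for B2m, and at chr17:34187281-34187580, minus strand, for Psmb9.
H2-K1: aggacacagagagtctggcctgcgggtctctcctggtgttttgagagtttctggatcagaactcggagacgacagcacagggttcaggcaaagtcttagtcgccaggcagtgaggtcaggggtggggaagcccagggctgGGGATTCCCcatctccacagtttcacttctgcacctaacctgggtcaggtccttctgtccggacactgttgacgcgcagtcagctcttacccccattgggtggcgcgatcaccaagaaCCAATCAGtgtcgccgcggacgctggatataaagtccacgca
H2-D1: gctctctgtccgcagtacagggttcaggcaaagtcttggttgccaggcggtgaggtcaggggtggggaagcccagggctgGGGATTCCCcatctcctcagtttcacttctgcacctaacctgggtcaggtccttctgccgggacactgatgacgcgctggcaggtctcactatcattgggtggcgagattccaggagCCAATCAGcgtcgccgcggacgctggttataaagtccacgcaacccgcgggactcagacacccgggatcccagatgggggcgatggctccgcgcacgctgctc
B2m: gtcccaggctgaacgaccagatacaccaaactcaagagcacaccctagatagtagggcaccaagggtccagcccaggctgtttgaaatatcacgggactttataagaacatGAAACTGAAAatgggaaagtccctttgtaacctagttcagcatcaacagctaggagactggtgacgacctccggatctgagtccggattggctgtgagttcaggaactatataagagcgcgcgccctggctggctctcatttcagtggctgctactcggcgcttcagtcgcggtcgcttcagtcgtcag
Psmb9: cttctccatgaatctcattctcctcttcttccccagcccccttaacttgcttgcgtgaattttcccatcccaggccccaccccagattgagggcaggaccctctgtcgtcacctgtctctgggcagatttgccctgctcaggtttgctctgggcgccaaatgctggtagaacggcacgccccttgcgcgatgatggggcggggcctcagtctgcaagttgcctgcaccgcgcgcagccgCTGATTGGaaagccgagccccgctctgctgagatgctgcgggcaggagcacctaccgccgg

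The NF-kB letters were in the windows of H2-K1 and H2-D1 and in 0.353% of all 32851 windows, and they sat inside a run of 47 bases that the windows of these 2 genes shared exactly. The Y box letters were in the windows of 4 members, H2-K1, H2-D1, Tap1 and Psmb9, and in 4.1% of all windows. Tap1 and Psmb9 are neighbors read in opposite directions, and their windows share 275 bases, so that their Y box is a single site. The ISRE letters were in the B2m window and in 3.44% of all windows. The interferon-gamma-activated site letters TTCNNNGAA were in the window of Psmb8 and in 8.3% of all windows, and the GC box letters GGGCGG were in the windows of Tap1, Tapbp and Psmb9 and in 35.7% of all windows. These are matches of letters and not binding sites.

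The matrix pooled all 6 mice without a map from cells to mice, so it was treated as 1 sample, no test between Restored and NonRestored mice was run, and no p-value is given. It held 16017 cells, of which 12183 had at least 500 genes and at most 20% mitochondrial UMIs (unique molecular identifiers, each a counted transcript). Gates were set in UMIs per 10000 UMIs of a cell. The ATII gate (Sftpc at least 500, Hopx under 2, Krt8 plus Krt18 under 50) took 6975 cells, the alveolar type I (ATI) gate (Hopx at least 15, Krt8 plus Krt18 under 50) took 956 and the keratin-high gate (Krt8 plus Krt18 at least 50) took 1183, with median depths of 21660, 11796.5 and 23490 UMIs per cell. The labels of the gates held against markers that the gates did not use: 11 of 11 ATII markers, 11 of 11 ATI markers and 8 of 8 keratin-high markers had their highest level in their own gate. Immune markers summed to between 2.92 and 8.49 counts per 1000000 UMIs (CPM) in the 3 gates, endothelial markers to between 7.17 and 16.6 CPM and fibroblast markers to between 9.82 and 30.9 CPM. Outside the gates, 78 cells carried immune, 128 endothelial and 241 fibroblast markers, and these marked cells serve as a reference for levels in other cell types, although 96.2%, 88.3% and 80.1% of them, in that order, also held TdTomato UMIs. Levels are CPM over all cells of a gate with exact Poisson 95% intervals, ratios have exact binomial 95% intervals, and both cover counting error only. A gene was called past 1.5-fold where its ratio was at least 1.5 or at most the inverse and it reached 10 CPM in either gate.

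The classical heavy chains and B2m, the subunits of the displayed molecule, were present in all 3 gates at levels that lay close to each other. H2-K1 stood at 758 CPM (754 to 762) in the ATII gate, 685 CPM (676 to 694) in the keratin-high gate and 552 CPM (540 to 565) in the ATI gate. H2-D1 stood at 923 CPM (918 to 927) in the ATII gate, 897 CPM (886 to 907) in the keratin-high gate and 834 CPM (818 to 849) in the ATI gate. The order was the same for both heavy chains, with none of the intervals overlapping, but the highest gate was above the lowest by only 1.37-fold for H2-K1 and 1.11-fold for H2-D1, and with equal weight per cell H2-D1 was level between keratin-high and ATII cells (log2 ratio 0.01). B2m stood at 246 CPM (243 to 248) in the ATII gate and 244 CPM (236 to 253) in the ATI gate, which did not differ beyond counting error, and at 205 CPM (200.3 to 210.4) in the keratin-high gate. With equal weight per cell B2m was 0.20 higher on the log2 scale in ATI than in ATII cells, and relative to the median gene it was lower, as given further on. H2-K1 and H2-D1 are related genes of the same family, and reads that fit both may have been dropped, so that their separate counts are uncertain.

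**Figure D1:**
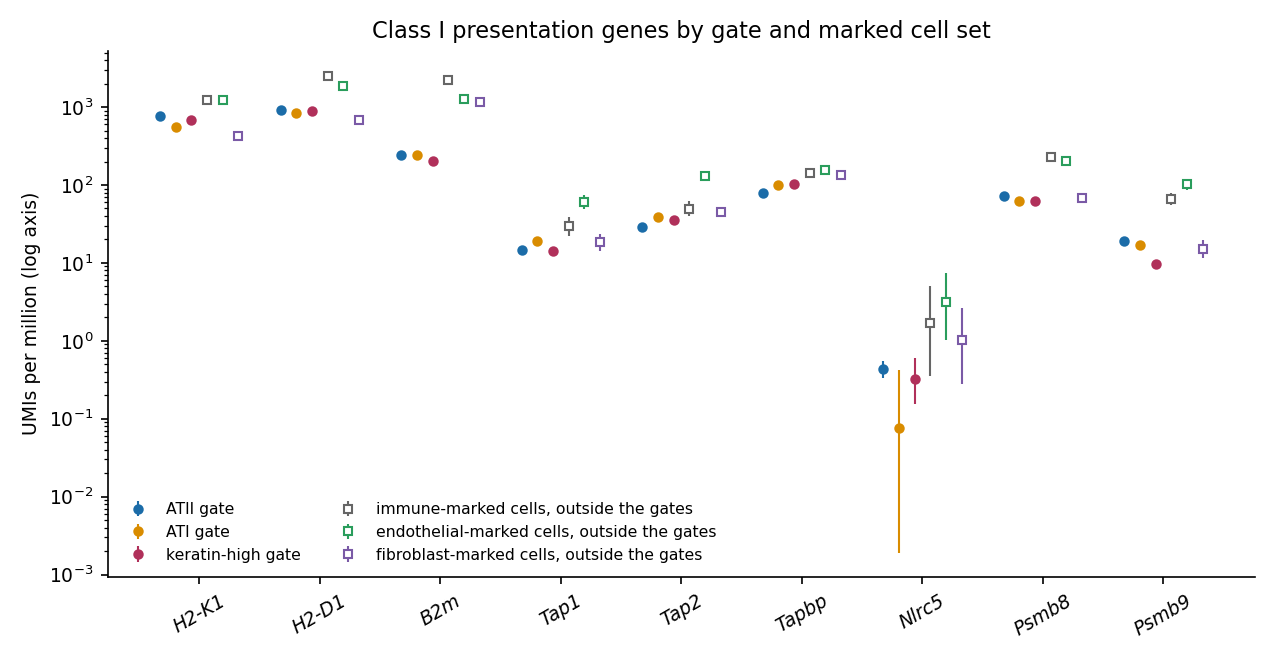
CPM (vertical log axis) of each of the 9 members (horizontal axis) in the 3 gates (filled circles) and in marked cells of other types outside the gates (open squares), with exact Poisson 95% intervals as bars. The 3 gates lie close together for all members but Psmb9 and the sparse Nlrc5, and B2m is between 1147 and 2241 CPM in the marked cells against 205 to 246 CPM in the gates.

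The peptide transporter and its tether were higher in CPM in ATI and keratin-high cells than in ATII cells, except for Tap1 in keratin-high cells, but relative to the median gene Tap2 (ratios 1.03 and 0.939) and Tapbp (0.959 and 0.997) were about level and so was Tap1 in ATI cells (0.999), with Tap1 lower in keratin-high cells (0.754). Tap2 measured 28.9 CPM (28.1 to 29.7) in the ATII gate, 35.4 CPM (33.4 to 37.6) in the keratin-high gate and 38.8 CPM (35.6 to 42.3) in the ATI gate. Tap1, the other subunit of the pump, measured 14.6 CPM (14.0 to 15.2) in the ATII gate, 14.3 CPM (13.0 to 15.8) in the keratin-high gate and 18.9 CPM (16.6 to 21.4) in the ATI gate. Tapasin (Tapbp) measured 79.4 CPM (78.0 to 80.7) in the ATII gate, 98.8 CPM (93.5 to 104) in the ATI gate and 103 CPM (99.8 to 107) in the keratin-high gate. The ATI and keratin-high intervals overlapped for Tap2 and Tapbp. For Tap1 the ATII and keratin-high intervals overlapped and the ATI gate was above both, while with equal weight per cell Tap1 was 0.27 higher on the log2 scale in keratin-high than in ATII cells.

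Of the immunoproteasome subunits, Psmb9 was lowest in keratin-high cells and showed the widest range of the 8 members that reached 10 CPM, and Psmb8 was highest in ATII cells over all depths. Psmb9 measured 18.9 CPM (18.2 to 19.5) in the ATII gate, 16.8 CPM (14.7 to 19.1) in the ATI gate and 9.72 CPM (8.65 to 10.9) in the keratin-high gate. The keratin-high interval lay below both others, which overlapped. Psmb8 measured 71.9 CPM (70.6 to 73.2) in the ATII gate, 62.9 CPM (60.1 to 65.8) in the keratin-high gate and 61.7 CPM (57.5 to 66.0) in the ATI gate, and the last 2 did not differ beyond counting error. In cells of 10000 to 30000 UMIs Psmb8 was level between the gates, with log2 ratios to the ATII gate of 0.0014 for ATI and 0.04 for keratin-high cells. The transactivator Nlrc5 was near the limit of detection, with 70 UMIs in the ATII gate (0.433 CPM, 0.338 to 0.548), 10 in the keratin-high gate (0.326 CPM, 0.156 to 0.6) and 1 in the ATI gate (0.0749 CPM, 0.0019 to 0.417). Its ATI-to-ATII ratio of 0.173 had an interval of 0.0043 to 0.996, and no difference between the ATII and keratin-high gates was detectable at this depth.

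Across all genes at the minimum of 10 CPM the median gene was not level between gates, and the members are therefore also given relative to it. Sftpc alone made up 155328 CPM of the ATII gate, 47497 CPM of the ATI gate and 19250 CPM of the keratin-high gate. The median gene was 0.38 higher on the log2 scale in the ATI gate than in the ATII gate and 0.39 higher in the keratin-high gate than in the ATII gate, and it differed by 0.01 between the keratin-high and ATI gates. From ATII to ATI cells, 0 of the 8 members tested were past 1.5-fold higher and 0 were past 1.5-fold lower, where 31.1% of all 8309 genes were higher and 9.04% lower. The median of the members was -0.08 on the log2 scale. Relative to the median gene, H2-K1 was lower by a ratio of 0.561 and Psmb8 by a ratio of 0.661, H2-D1, Psmb9 and B2m lay at ratios of 0.696, 0.686 and 0.766, and Tap1, Tap2 and Tapbp moved with the median gene (0.999, 1.03 and 0.959).

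From ATII to keratin-high cells, 1 of 8 members was past 1.5-fold lower and 0 were higher, where 8.63% of all 8369 genes were lower and 34.7% higher. The member was Psmb9, at a ratio of 0.515 (0.456 to 0.58), and the median of the members was -0.09. Psmb9 was at 9.72 CPM in the keratin-high gate and reached 10 CPM only in the gate where it was higher. This holds here and in the comparison with the ATI gate below, so both calls lean toward lower. H2-D1 differed least of the heavy chains and B2m, at 0.972 (0.959 to 0.984), with H2-K1 at 0.903 (0.89 to 0.917) and B2m at 0.835 (0.813 to 0.857). Tapbp was higher at 1.303 (1.253 to 1.355) and Tap2 at 1.23 (1.15 to 1.31). Relative to the median gene, Psmb9 stood at 0.394, B2m at 0.639, Psmb8 at 0.67, H2-K1 at 0.692, H2-D1 at 0.744 and Tap1 at 0.754, and Tapbp and Tap2 stood at 0.997 and 0.939. From ATI to keratin-high cells, 1 of 8 members was again past 1.5-fold lower and 0 were higher, where 9.96% of all 8460 genes were lower and 12.1% higher. This was also Psmb9, at 0.579 (0.485 to 0.692), which was no longer past 1.5-fold with equal weight per cell (log2 ratio -0.56 in place of -0.79) or in cells of 10000 to 30000 UMIs (-0.57). The heavy chain H2-K1 was higher in keratin-high cells by a ratio of 1.24 (1.21 to 1.27).

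**Figure D2:**
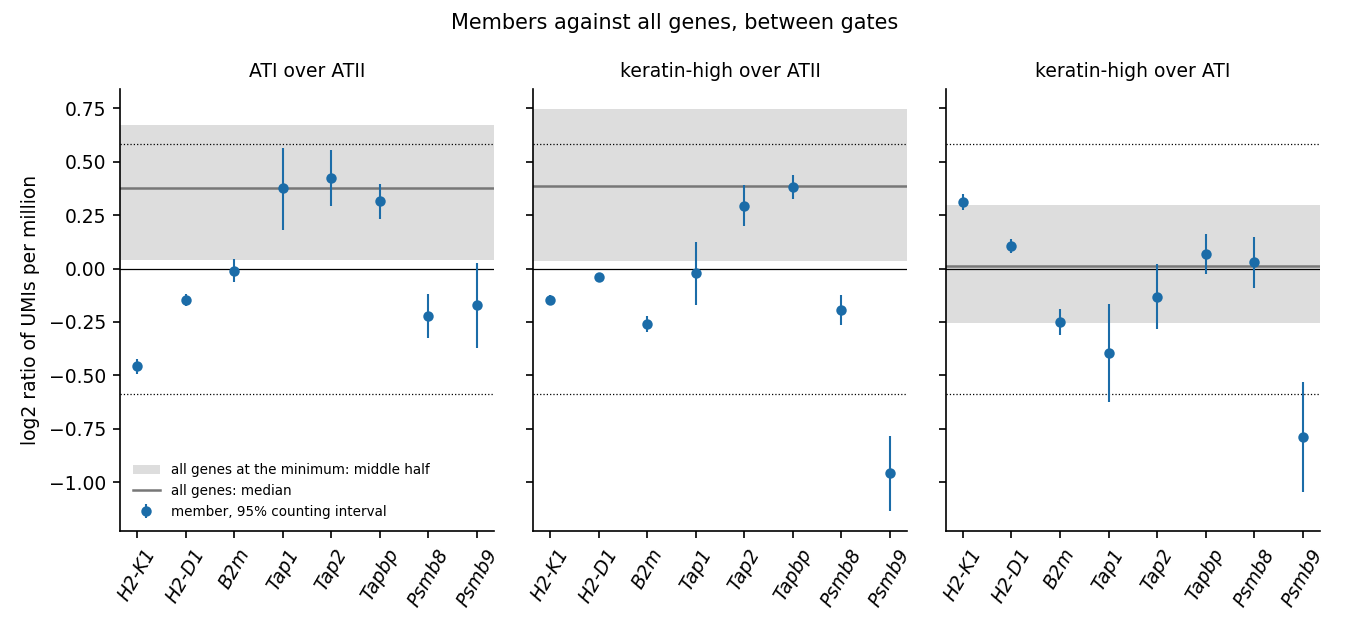
Log2 ratio of CPM between gates (vertical axis) for the 8 members at 10 CPM or more (points, with exact 95% counting intervals), beside the median (gray line) and interquartile range (gray band) of all genes at that minimum; dotted lines mark 1.5-fold. Psmb9 lies below the lower dotted line in both panels with keratin-high cells, and the heavy chains, B2m and Psmb8 lie under the gray band in both panels with ATII cells.

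Transcripts of the inducible proteasome subunits were compared with those of their constitutive partners within each gate, as UMIs per 100 UMIs of the partner, a measure that does not depend on the total of a gate. Psmb8 stood at 37.1 (36.3 to 37.9) per 100 Psmb5 in the ATII gate, 24.5 (22.6 to 26.4) in the ATI gate and 19.5 (18.6 to 20.5) in the keratin-high gate. Psmb9 stood at 10.9 (10.5 to 11.4) per 100 Psmb6 in the ATII gate, 7.37 (6.4 to 8.44) in the ATI gate and 3.77 (3.35 to 4.24) in the keratin-high gate. Psmb10, the third inducible subunit and no member of the set, stood at 28.1 (27.1 to 29.1) per 100 Psmb7 in the ATII gate, 19.95 (17.7 to 22.4) in the ATI gate and 18.9 (17.6 to 20.2) in the keratin-high gate. All 3 pairs had the same order of gates, and the intervals of the ATI and keratin-high gates overlapped for Psmb10 alone. The order of all 3 pairs also held in cells of 10000 to 30000 UMIs, a reading of these pairs that was added after the data were seen. Psmb8 per 100 Psmb5 was then 35.9, 26.4 and 22.1 in the ATII, ATI and keratin-high gates, Psmb9 per 100 Psmb6 was 10.9, 7.41 and 4.42, and Psmb10 per 100 Psmb7 was 28.8, 20.9 and 19.7. The constitutive subunits were higher in keratin-high than in ATII cells, Psmb5 by 1.66-fold (1.63 to 1.7), Psmb6 by 1.49-fold (1.46 to 1.53) and Psmb7 by 1.83-fold (1.77 to 1.89). Of these 3, 2 were past 1.5-fold, where 34.7% of all genes were past it higher and the median gene was 1.31-fold higher. The level of Psmb10 itself was not lower in keratin-high cells, at 24.6 CPM in the ATII, 25.6 CPM in the ATI and 30.2 CPM in the keratin-high gate (keratin-high over ATII 1.23, 1.14 to 1.32, and under 1 relative to the median gene), so its lower ratio to Psmb7 goes with the higher Psmb7. The proteasome activator subunits Psme1 and Psme2, also interferon-inducible, were past 1.5-fold in no comparison of gates.

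The same ratios were taken in the marked cells outside the gates. Per 100 Psmb5, Psmb8 reached 85.4 (74.5 to 97.7) in immune-marked and 110 (93.5 to 129) in endothelial-marked cells, and fibroblast-marked cells, at 31.0 (26.9 to 35.6), lay within the range of the gates. Per 100 Psmb6, Psmb9 reached 22.3 (18.1 to 27.3) in immune-marked and 52.9 (43.5 to 64.3) in endothelial-marked cells, and it was 7.34 (5.52 to 9.59) in fibroblast-marked cells, again within the range of the gates. Per 100 Psmb7, Psmb10 was above the gates in all 3, at 107 (85.8 to 132) in immune-marked, 97.1 (79.5 to 119) in endothelial-marked and 74.4 (63.8 to 86.8) in fibroblast-marked cells. B2m was 14.6 (14.5 to 14.8) per 100 heavy chain UMIs (H2-K1 plus H2-D1) in the ATII gate, 17.6 (17.0 to 18.3) in the ATI gate and 13.0 (12.6 to 13.3) in the keratin-high gate. It was 59.7 (57.4 to 62.2) in immune-marked, 41.3 (39.2 to 43.6) in endothelial-marked and 105 (100.4 to 109.2) in fibroblast-marked cells, above the highest gate in each. The H2-D1 level was 2529 CPM in immune-marked, 1849 CPM in endothelial-marked and 674 CPM in fibroblast-marked cells, and the B2m level was 2241, 1271 and 1147 CPM.

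**Figure D3:**
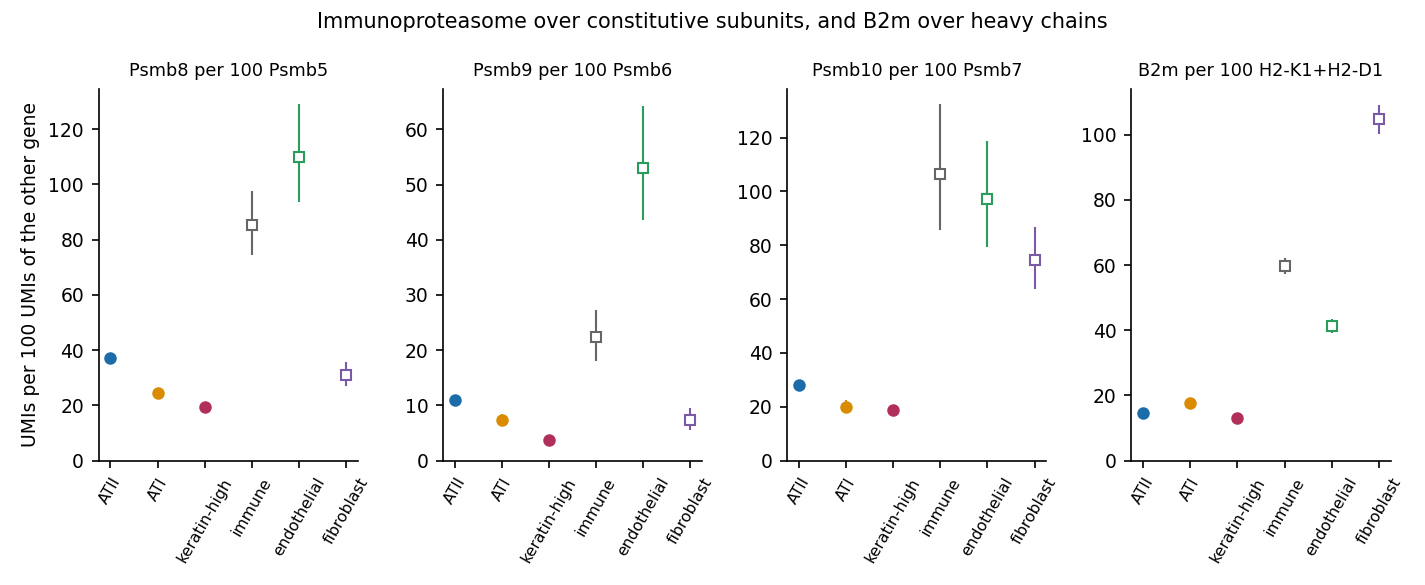
UMIs per 100 UMIs of a partner gene (vertical axes from 0, a scale of its own in each panel) for 3 inducible over constitutive proteasome subunits and for B2m over the summed heavy chains, in the 3 gates (filled circles) and in marked cells outside the gates (open squares), with exact 95% counting intervals. The inducible-to-constitutive ratios are highest in ATII and lowest in keratin-high cells among the gates in the first 3 panels, with overlapping ATI and keratin-high intervals for Psmb10, and B2m per heavy chain lies between 13.0 and 17.6 in the gates and between 41.3 and 105 in the marked cells.

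MHC class II genes, which present peptides to CD4 T cells, were measured in the same gates. Their list (Cd74, H2-Aa, H2-Ab1, H2-Eb1, H2-DMa, H2-DMb1 and the class II transactivator Ciita) had 4 of 7 genes past 1.5-fold lower in ATI than in ATII cells and 7 of 7 lower in keratin-high than in either other gate, where 9.04% of all genes were lower from ATII to ATI, 8.63% from ATII to keratin-high and 9.96% from ATI to keratin-high cells. Its median was -1.89 on the log2 scale from ATII to keratin-high cells, beside -0.09 for the class I members and 0.39 for all genes. Cd74, the invariant chain, went from 5829 CPM in the ATII gate to 2142 CPM in the keratin-high gate (ratio 0.367, 0.364 to 0.37), and Ciita from 21.97 to 3.88 CPM (ratio 0.177, 0.146 to 0.212). In both comparisons with keratin-high cells Ciita reached 10 CPM only in the gate where it was higher. Among 8 other genes of peptide trimming and loading, 3 were past 1.5-fold higher in keratin-high than in ATII cells, a share close to the 34.7% of all genes. They encode chaperones of the endoplasmic reticulum with general roles in protein folding, calreticulin (Calr) at 2.27 (2.24 to 2.31), Hspa5 at 2.27 (2.24 to 2.3) and Pdia3 at 2.06 (2.02 to 2.09). None of the 8 was past 1.5-fold between ATI and ATII cells.

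Non-classical heavy chains were listed with the related chains Cd1d1 and Mr1, which lie outside the complex. Of the 13 in the matrix, 5 reached 10 CPM in the ATII-to-ATI comparison and 2 of these were past 1.5-fold lower in ATI cells, where 9.04% of all genes were lower. H2-Q7, a Qa-2 gene, measured 26.0 CPM in the ATII gate, 9.68 CPM in the keratin-high gate and 4.27 CPM in the ATI gate, a ratio of 0.164 (0.124 to 0.213) from ATII to ATI and of 0.372 (0.33 to 0.419) from ATII to keratin-high cells. It reached 10 CPM only in the ATII gate, where it was higher, so its calls lean toward lower. H2-Q4 was the other, at 0.66 (0.589 to 0.737) from ATII to ATI cells. H2-T23, which encodes Qa-1, was level in CPM, at 1.05 (0.984 to 1.12) from ATII to ATI cells. H2-Q7 has a near-identical copy in H2-Q6, so reads that fit both may have been dropped and its counts are uncertain.

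Regulators of class I promoters and interferon genes were measured in the same gates. The transcription factor Irf1, which binds interferon response elements, measured 63.9 CPM in the ATII gate, 39.9 CPM in the ATI gate and 36.2 CPM in the keratin-high gate, a ratio of 0.624 (0.571 to 0.681) for ATI and 0.566 (0.532 to 0.602) for keratin-high over ATII cells. Of the 14 factors listed for class I promoters, 13 were tested between ATI and ATII cells and 5 were past 1.5-fold higher with 1 lower, near the 31.1% and 9.04% of all genes. Between keratin-high and ATII cells 12 were tested with 2 higher and 1 lower, where 34.7% of all genes were higher and 8.63% lower. Rela, an NF-kB subunit, was among the higher ones in both, at 1.95 (1.79 to 2.13) and 2.16 (2.03 to 2.29). Of 9 interferon receptor chains and kinases, 6 of 8 tested were past 1.5-fold higher in ATI and 6 of 8 in keratin-high cells than in ATII cells, led in keratin-high cells by Ifngr2, a chain of the interferon-gamma receptor, at 2.78 (2.66 to 2.89). Of 30 interferon-induced genes, 9 were tested between ATI and ATII cells, with 5 higher and 1 lower, and 7 between keratin-high and ATII cells, with 4 higher and 0 lower. Of the genes counted as higher, Ifit2, Ifit3 and Isg15 in ATI cells, Isg15 in keratin-high cells, and the kinase Tyk2 in both reached 10 CPM only in the gate where they were higher, so these counts lean upward. Of the interferon-induced genes tested, Ifit3 and Ifit2 had the widest gap, at 48.9 and 27.7 CPM in the ATI gate against 1.15 and 0.743 CPM in the ATII gate. The shares of all genes past 1.5-fold given above apply to these counts too, and the lists were not tested against them.

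Cells carrying a GFP transcript of the trapped allele were then set against cells carrying an Stk11 transcript. Neither says which mouse a cell came from. Because the trap is deleted only with FLPo-ERT2 and tamoxifen, the groups may draw unevenly on Restored and NonRestored mice. A difference between them cannot be told apart from a difference between mice or treatments. In the 3 gates together 2626 cells had GFP without Stk11 and 2784 had Stk11 without GFP, and 20 had both and were left out. The remaining 3684 cells had neither. The gates differed in makeup, with 1742 GFP-positive and 2353 Stk11-positive cells in the ATII gate, 242 and 266 in the ATI gate, and 642 and 165 in the keratin-high gate, so each gate was also compared on its own. Markers of the gates still differed within them. In GFP-positive against Stk11-positive cells of the ATII gate, 7 of 8 keratin-high markers tested were past 1.5-fold higher, where 5.6% of all genes were. In the ATI gate 8 of 12 ATII and 5 of 12 ATI markers were lower and 0 of either higher, where 3.22% of all genes were lower. In the keratin-high gate 6 of 12 ATII markers were higher, where 6.07% of all genes were. In that gate 5 of 11 ATI and 3 of 10 keratin-high markers were lower, where 5.58% of all genes were. The part of these differences in the values of B2m, Tap1 and H2-T23 given next was not tested. Median depths were 25472.5 UMIs per GFP-positive and 25078 per Stk11-positive cell in the ATII gate, 16283 and 14119.5 in the ATI gate, and 28317.5 and 24569 in the keratin-high gate.

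In the 3 gates together, 0 of 8 members were past 1.5-fold in either direction, where 9.33% of all 7974 genes were higher and 2.18% lower in GFP-positive cells. In the ATII gate 0 of 8 were past 1.5-fold either way, where 5.6% of all 7709 genes were higher and 1.6% lower. The median gene was 1.13-fold higher in GFP-positive cells there. Relative to it, B2m stood at 0.73, Psmb9 at 0.814, H2-K1 at 0.824, Tap1 at 0.872 and H2-D1 at 0.882. Tapbp stood at 0.912, Tap2 at 0.992 and Psmb8 at 1.04. In CPM H2-D1 was level in the ATII gate, at 949 CPM in GFP-positive and 950.3 CPM in Stk11-positive cells (ratio 0.999, 0.987 to 1.01). H2-K1 was slightly lower in GFP-positive cells, at 754 and 807 CPM (0.934, 0.921 to 0.946), but with at least 2 UMIs of GFP or Stk11 required its log2 ratio was 0.01. B2m was lower in GFP-positive cells, at 226 CPM against 273 CPM, a ratio of 0.827 (0.807 to 0.847). Fibroblast markers summed to 20.8 CPM in the GFP-positive and 57.6 CPM in the Stk11-positive ATII cells, and without cells holding marker UMIs of other cell types the log2 ratio of B2m was -0.28 in place of -0.27. In CPM Psmb8 was higher, at 82.1 against 69.5 CPM (1.18, 1.13 to 1.23), and its constitutive partner Psmb5 was higher by 1.215 (1.183 to 1.247), so that Psmb8 per 100 Psmb5 was 36.8 (35.5 to 38.2) and 37.9 (36.5 to 39.2). Psmb9 per 100 Psmb6 was 9.47 (8.82 to 10.1) in GFP-positive and 12.1 (11.4 to 12.9) in Stk11-positive cells of the ATII gate, and Psmb10 per 100 Psmb7 was 28.1 (26.4 to 29.8) and 28.5 (26.8 to 30.2). In the other gates the Psmb9 intervals overlapped, at 7.27 (5.71 to 9.14) and 7.84 (6.11 to 9.92) in the ATI gate and 3.56 (3.06 to 4.11) and 3.46 (2.43 to 4.78) in the keratin-high gate. These rest on few Psmb9 UMIs, 79 and 75 in the ATI gate and 189 and 38 in the keratin-high gate. Whether the gap differs between gates was not tested. Psmb8 per 100 Psmb5 was 25.3 (22.2 to 28.7) and 24.7 (21.5 to 28.2) in the ATI gate and was higher in GFP-positive cells of the keratin-high gate, at 20.0 (18.8 to 21.2) against 15.8 (13.8 to 18.2).

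B2m was the member that was lower in GFP-positive cells in each of the 3 gates beyond counting error, by different amounts. In the ATI gate it measured 188 CPM (175 to 201.3) in GFP-positive and 276 CPM (260.5 to 292) in Stk11-positive cells, a ratio of 0.682 (0.623 to 0.745). In the keratin-high gate it measured 195 CPM (189 to 201.7) and 214 CPM (201.2 to 228), a ratio of 0.912 (0.85 to 0.979). B2m per 100 heavy chain UMIs gave the same direction, with 13.3 (13.0 to 13.6) and 15.6 (15.3 to 15.8) in the ATII gate and 13.7 (12.7 to 14.7) and 19.1 (18.0 to 20.3) in the ATI gate, and with 12.4 (11.96 to 12.8) and 13.4 (12.5 to 14.3) in the keratin-high gate, where the intervals overlapped. In the ATI gate 0 of 8 members were past 1.5-fold either way, where 7.03% of all 8255 genes were higher and 3.22% lower, and B2m lay just inside that limit. The median gene was 0.18 higher on the log2 scale in GFP-positive cells in the ATII gate, 0.12 higher in the ATI gate and 0.02 higher in the keratin-high gate. Relative to it, B2m stood at ratios of 0.73, 0.628 and 0.902, in that order.

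In the keratin-high gate, 1 of 7 members was past 1.5-fold lower in GFP-positive cells and 0 were higher, where 5.58% of all 8363 genes were lower and 6.07% higher. The member was Tap1, at 12.3 CPM (10.8 to 14.0, 245 UMIs) against 20.7 CPM (16.8 to 25.3, 96 UMIs), a ratio of 0.596 (0.469 to 0.763). Where GFP and Stk11 were read after thinning, Tap1 was no longer past 1.5-fold (log2 ratio -0.47 in place of -0.75), and Psmb8 was past it in its place, higher in GFP-positive cells (0.66). The partner of Tap1, Tap2, stood at 34.7 and 39.2 CPM (0.886, 0.751 to 1.05), so that Tap1 per 100 Tap2 was 35.5 (30.6 to 41.1) in GFP-positive and 52.7 (40.8 to 67.9) in Stk11-positive cells. Psmb9 was under 10 CPM in both, at 9.51 and 8.18 CPM. H2-K1 was higher in GFP-positive keratin-high cells, at 700 against 621 CPM (1.13, 1.08 to 1.17), and H2-D1 was lower, at 880.4 against 979 CPM (0.899, 0.87 to 0.929). The keratin-high Stk11-positive group was the smaller, with 165 cells.

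**Figure D4:**
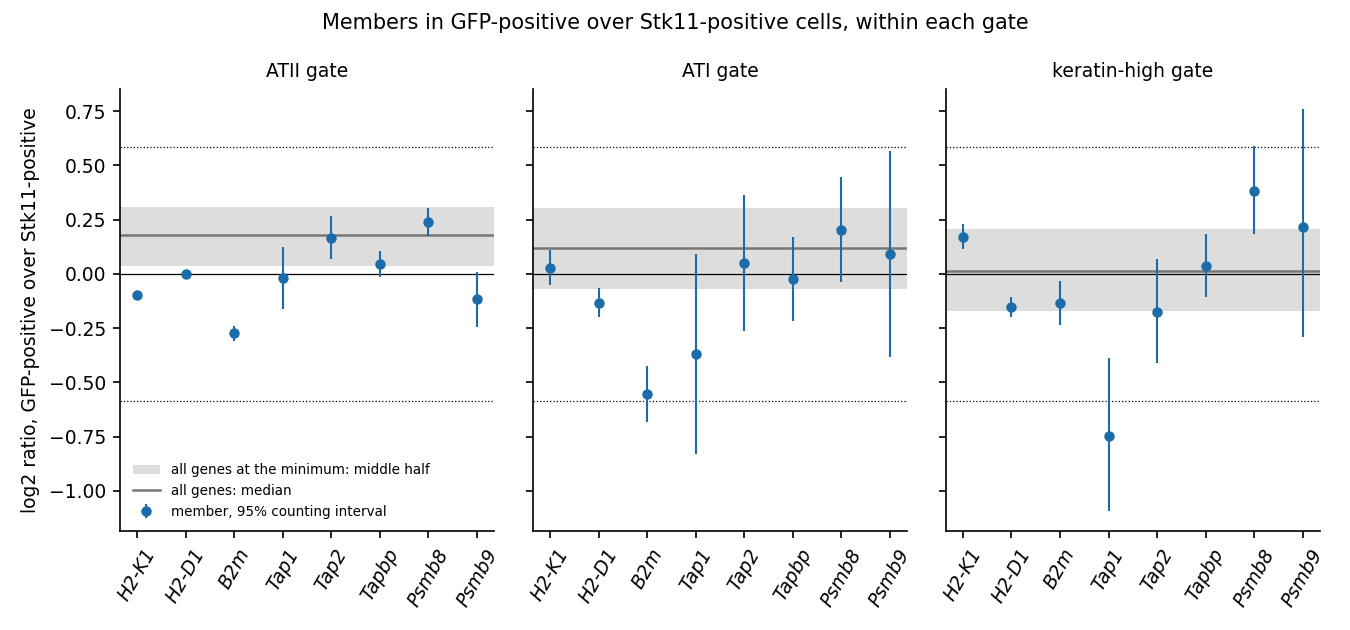
Log2 ratio of CPM in GFP-positive over Stk11-positive cells (vertical axis) within each gate for 8 members (points, with exact 95% counting intervals), beside the median (gray line) and interquartile range (gray band) of all genes at the minimum; dotted lines mark 1.5-fold. B2m lies below 0 in all 3 panels, and Tap1 in the keratin-high panel is the point past the dotted line.

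The non-classical chain H2-T23 was lower in GFP-positive cells of each gate. Its interval overlapped that of B2m in the ATI gate and that of Tap1 in the keratin-high gate. It measured 64.2 CPM in GFP-positive and 87.9 CPM in Stk11-positive cells of the ATII gate (0.73, 0.698 to 0.763), 65.3 and 98.3 CPM in the ATI gate (0.664, 0.57 to 0.773), and 75.8 and 148 CPM in the keratin-high gate (0.514, 0.469 to 0.563). It was past 1.5-fold lower in the ATI and keratin-high gates. H2-Q7 went the other way in the ATII gate, at 33.9 against 25.3 CPM (ratio 1.34), and in the keratin-high gate, at 10.0 against 3.88 CPM (2.58, 1.59 to 4.45, 18 UMIs in the Stk11-positive cells). In the keratin-high gate it reached 10 CPM only in the GFP-positive cells, where it was higher. Among MHC class II genes, 0 of 7 were past 1.5-fold in the ATII gate, 1 of 7 was past it lower and 0 higher in GFP-positive cells of the ATI gate (3.22% and 7.03% of all genes), and 3 of 6 were past it higher and 0 lower in the keratin-high gate (6.07% and 5.58% of all genes).

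Cell-to-cell variation was read after each cell was thinned to 5000 UMIs, which kept 6772 ATII, 841 ATI and 1090 keratin-high cells and left out 203, 115 and 93. The summed UMIs of the 9 members had a median of 9 per cell in the ATII gate, 8 in the ATI gate and 9 in the keratin-high gate, and the highest cells held 76, 40 and 59. Only 11, 2 and 3 cells of the gates had none. H2-D1 was seen in 96.4% (95.9 to 96.8) of thinned ATII cells, 97.0% (95.6 to 98.1) of ATI cells and 96.6% (95.4 to 97.6) of keratin-high cells, and the unthinned shares were 98.7%, 96.1% and 96.1%. H2-K1 was seen in 91.8% (91.1 to 92.4), 86.6% (84.1 to 88.8) and 91.9% (90.1 to 93.5), and B2m in 59.2% (58.0 to 60.3), 64.2% (60.9 to 67.4) and 57.5% (54.5 to 60.5). Psmb9 was seen in 8.08% (7.44 to 8.75) of ATII, 7.37% (5.7 to 9.35) of ATI and 4.95% (3.74 to 6.41) of keratin-high cells, the same order as its CPM, and unthinned in 30.6%, 19.4% and 19.3%. Nlrc5 was seen in 13 ATII cells, in 1 keratin-high cell and in 0 of 841 ATI cells, for which 3 counts allow a share of up to 0.357% of cells with a UMI at this depth. That limit is not one on cells expressing the gene, and 0.105% of unthinned ATI cells held a UMI. Nearly every cell type carries class I transcripts, so no cell type in the matrix gives a background for these shares, and free RNA from lysed cells was not measured.

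The heavy chains and B2m spread more widely between cells than counting alone gives. The variance of thinned UMIs over their mean, which is 1 for counting error alone, was 2.86 for H2-K1, 2.29 for H2-D1 and 2.07 for B2m in the ATII gate. This measure rises with the mean, and Tap1, Tap2, Tapbp, Psmb8 and Psmb9, at means of 0.0735 to 0.398 thinned UMIs per ATII cell against 1.19 to 4.34 for the heavy chains and B2m, are too sparse to be compared with them. In the ATI gate it was 1.73 for H2-K1, 1.73 for H2-D1 and 1.58 for B2m, and in the keratin-high gate 2.88, 2.14 and 1.6. Across the 6772 ATII cells, which share libraries and mice, Pearson's r of log2(thinned UMIs + 1) was 0.395 for H2-K1 with H2-D1, 0.344 for H2-K1 with B2m and 0.307 for H2-D1 with B2m, and the median of the 28 pairs of 8 members was 0.043. The same 3 pairs had r of 0.277, 0.171 and 0.168 over 841 ATI cells and 0.346, 0.269 and 0.248 over 1090 keratin-high cells. The other pairs were sparse counts with r no higher than 0.128 in these gates, and no relation is read from them.

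**Figure D5:**
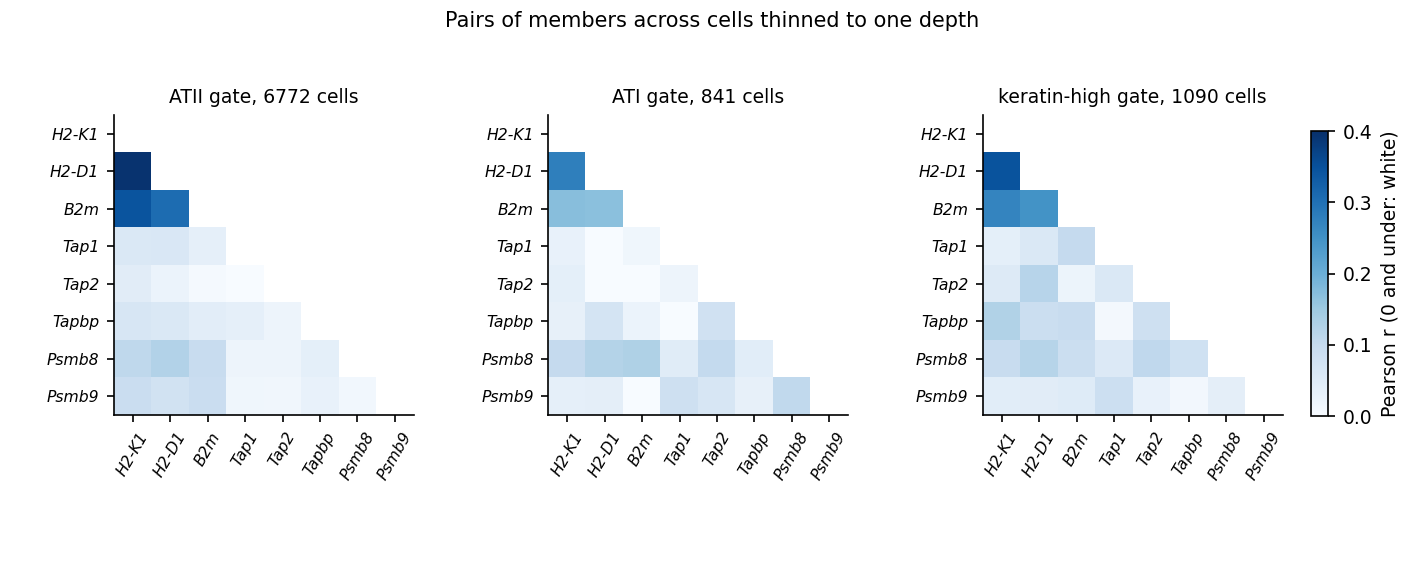
Pearson's r across cells between log2(thinned UMIs + 1) of each pair of 8 members (rows and columns) in the 3 gates, with darker blue for a higher r. The 3 pairs among H2-K1, H2-D1 and B2m are the darkest in each panel, and the pairs with Tap1, Tap2, Tapbp, Psmb8 and Psmb9 are pale.

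Most of the summed member UMIs came from H2-K1, H2-D1 and B2m, with means of 3.63, 4.34 and 1.19 of 10.2 thinned UMIs per ATII cell. Likeness to the sum is therefore mostly likeness to these genes. The genes whose counts ran most like the sum of the members over the 6772 thinned ATII cells were, among 7423 genes, H2-Q7 (r = 0.396), Cd74 (0.299), H2-Aa (0.232), Fth1 (0.231), Chil1 (0.212), Lcn2 (0.201), H2-Ab1 (0.189), Lrg1 (0.176), Itih4 (0.171) and Prdx6 (0.164). The median over all these genes was -0.0033 and the 99th percentile 0.092. Of these, H2-Q7 shares sequence with the heavy chains, so part of its r may be shared reads, which was not tested. Cd74, H2-Aa and H2-Ab1 belong to class II, and Lcn2, Lrg1 and Itih4 encode secreted proteins of the acute-phase response. Over keratin-high cells r was 0.26 for H2-Q7, 0.0931 for Cd74, -0.0043 for Lcn2 and -0.0681 for Lrg1, and over ATI cells it was 0.153, 0.156, 0.0524 and 0.0471. The lowest r in ATII cells were those of Malat1 (-0.185), Gm42418 (-0.18), Neat1 (-0.169), Lars2 (-0.159) and mt-Co3 (-0.158). Malat1 and Neat1 are nuclear RNAs and mt-Co3 is a mitochondrial transcript, and their part in the other values was not tested.

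Of the 9 members, 7 lie on chromosome 17, within the major histocompatibility complex, between 33915899 and 35267499 on GRCm38 (GENCODE M21). H2-K1 (33996017 to 34000347, minus strand) and H2-D1 (35262730 to 35267499, plus strand) lie apart from each other with the others of the complex between them or, for Tapbp (33915899 to 33929292, plus strand), beside H2-K1. Psmb9 (34181987 to 34187764, minus strand), Tap1 (34187553 to 34197225, plus strand), Psmb8 (34197721 to 34201454, plus strand) and Tap2 (34203527 to 34216321, plus strand) form a row. The gene models of Psmb9 and Tap1 overlap by 212 bases on opposite strands, whether counting used the strand is not given in the sources used here, and the overlap is at the 5′ ends, away from the 3′ ends that the assay reads. Tapbp overlaps Zbtb22 on the same strand. B2m is on chromosome 2 (122147686 to 122153083, plus strand) and Nlrc5 on chromosome 8 (94434356 to 94527272, plus strand). For the pair that shares a promoter, Tap1 stood at a ratio of 0.985 (0.888 to 1.09) and Psmb9 at 0.515 (0.456 to 0.58) from ATII to keratin-high cells. From ATI to keratin-high cells both were lower beyond counting error, at 0.76 (0.649 to 0.891) and 0.579 (0.485 to 0.692), with overlapping intervals.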

How the data were processed

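Sorted neoplastic cells of 6 mice were profiled with the Chromium Single Cell 3′ v3 kit. The authors aligned reads to mm10 with Cell Ranger 3.0.2, and the deposited values are whole UMI counts per gene and cell, not normalized. Cells could not be assigned to mice, so the matrix was treated as 1 sample, with no test or replicate error. The 9 members, the gates and the gene lists were chosen with earlier results of these data known, and the minimums for marked cells (10 UMIs per 10000 of immune or endothelial, 20 of fibroblast markers) after the data were seen. UMIs were summed per gate, given per 1000000 (CPM), and called past 1.5-fold at 10 CPM or more in either group. Intervals (exact Poisson, conditional binomial and Clopper-Pearson, 95%) cover counting error only. Doublets were kept, and leaving out the 6% deepest cells was an alternative. Reading partner-gene ratios in cells of 10000 to 30000 UMIs was added after the data were seen. The text names the members, listed genes with the highest level or past 1.5-fold, and the 10 genes most like the summed members. The ratio calls were tested on simulated data. Gene positions came from GENCODE M21 (GRCm38), which matched 30934 of the 31055 features. Software was Python 3.11.15 with numpy 2.4.6, pandas 2.3.3, scipy 1.17.1 and matplotlib 3.10.9. One element of the genotype is not reported here.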

Additional observations from a re-analysis of the deposited data

How the results depend on the processing

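No paired analysis was possible because the cells carry no mouse or replicate number. The count of members past 1.5-fold stayed within the limits of the main count under mitochondrial shares of at most 10%, at least 1000 genes per cell and without the 6% deepest cells, in all 7 comparisons, and in the 4 comparisons of GFP-positive with Stk11-positive cells where 2 UMIs of GFP or Stk11 were required or cells with both counted as GFP-positive. With every cell weighted equally it became 1 from ATII to ATI cells (Tap1, higher), 0 from ATI to keratin-high cells and 1 for GFP-positive over Stk11-positive ATI cells (Tap1, lower). With UMIs other than Sftpc as the total it became 1 from ATII to ATI cells (H2-K1, lower) and 1 for GFP-positive ATI cells (B2m, lower). Relative to the median gene it became 2 from ATII to ATI cells (H2-K1 and Psmb8, lower), 2 from ATII to keratin-high cells (B2m and Psmb9, lower) and 1 for GFP-positive ATI cells (B2m). Without cells holding marker UMIs of other cell types it became 1 for GFP-positive ATI cells (B2m). In cells of 10000 to 30000 UMIs it became 0 from ATI to keratin-high cells, 2 for GFP-positive keratin-high cells (Tap1 lower, Psmb9 higher) and 1 for GFP-positive ATI cells (B2m). With stricter gates it became 1 from ATII to ATI cells (H2-K1) and 2 from ATI to keratin-high cells (Tap1 and Psmb9, lower), and with GFP and Stk11 read after thinning it became 2 for GFP-positive ATI cells (B2m and Tap1) and stayed 1 for GFP-positive keratin-high cells with a different member, Psmb8 (higher) in place of Tap1. A lower fold limit gave 3 from ATII to ATI cells, 2 from ATII to keratin-high cells, 2 from ATI to keratin-high cells, and for GFP-positive cells 1 in all gates (B2m), 2 in the keratin-high gate and 2 in the ATI gate, and a limit of 2-fold gave 0 in the 3 comparisons that had 1. The causes were not tested. Of members called under an alternative only, Psmb8 from ATII to ATI cells ranged from -0.60 to 0.0014 on the log2 scale and Tap1 in GFP-positive over Stk11-positive ATI cells from -0.69 to 0.15, so both changed sign, as did Tap1 from ATII to ATI cells and Tapbp from ATII to keratin-high cells, which fell just under 0 relative to the median gene (-0.0011 and -0.0041). The 3 calls of the report (Psmb9 in both comparisons with keratin-high cells, Tap1 in GFP-positive keratin-high cells) kept theirs. The log2 ratio of Psmb9 from ATII to keratin-high cells ranged from -1.54 to -0.71 and that of B2m in GFP-positive over Stk11-positive ATII cells from -0.45 to -0.14. Counts limit Nlrc5 in every gate and Tap1 and Psmb9 among Stk11-positive keratin-high cells.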
